A study of Mus musculus with 7 samples.

Results

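The clock output regulators examined here are 9 genes that pass time-of-day signals from the circadian clock to other genes or feed back on it: Dbp, Tef, Hlf, Nfil3, Ciart, Bhlhe40, Bhlhe41, Rora and Usp2. They were chosen by gene symbol, and all 9 were found among the 12151 genes of the deposited table. RNA was sequenced from isolated mouse hepatocytes, the liver's main metabolic cells, in 4 libraries labelled ALAS1/2-KO and 3 wild-type (WT) libraries. In the ALAS1/2-KO group an inducible Cre was to remove exons 4 and 5 of Alas1, the housekeeping aminolevulinate synthase, and Alas2, the erythroid enzyme, was to be lowered by siRNA coupled to GalNAc, a sugar that hepatocytes take up. Tamoxifen is the labelled treatment of all ALAS1/2-KO libraries, and the WT libraries are labelled as having none, so that effects of the deletion, the drug and the siRNA cannot be told apart. The study concerns a role of ALAS1 in small RNA silencing that does not depend on heme. The promoter that drives Cre, the strain, sex and age of the mice, their feeding and the hour at which the cells were taken are given by no source used here. The labels do not say which animal each replicate is from, so the p-values rest on the spread between these libraries alone, which may be technical.

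In the mammalian clock the factors CLOCK and BMAL1 activate genes through E-box elements, and the PER and CRY proteins they induce shut them off again. Among the genes activated in this way are Dbp, Tef and Hlf, the proline and acidic amino acid-rich (PAR) bZIP activators, which bind D-box elements and in mouse liver govern genes of drug and heme metabolism, Alas1 included. NFIL3 represses through the same D-boxes, CIART, BHLHE40 and BHLHE41 repress at E-boxes, RORA activates through ROR elements, and USP2 is a ubiquitin protease that acts on clock proteins. In mouse liver Dbp and Ciart are known for very large daily swings in transcript level, and Nfil3 for peaking at about the opposite time of day.

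Listed reads per library ran from 27933939 to 30195635 in ALAS1/2-KO and from 22916097 to 34048680 in WT. CPM are read counts scaled to an effective library size, which was not the sum of listed reads. Alas2 stood at 0.333, 0.80, 0.428 and 0.198 CPM in ALAS1/2-KO replicates 1 to 4. In WT replicates 1 to 3 it stood at 16.9, 10.3 and 6.65 CPM. Mitochondrially encoded genes took 16.8% to 27.3% of listed reads in ALAS1/2-KO and 31.9% to 43.2% in WT. The hepatocyte markers were present at 94953 to 98164 CPM in sum in ALAS1/2-KO and 130621 to 137352 CPM in WT. Most of these sums was Alb, which encodes albumin, at a mean of 53409 CPM in ALAS1/2-KO and 97897 CPM in WT. Of these 10 genes only Alb was called, with a log2 fold change of -0.87 (SE 0.11, limma adjusted p = 0.00606), reversing to 0.28 with quantile normalization. The log2 fold change was above 0 for 8 of the 10, and for 5805 of all 12105 tested genes. Without overlap of the groups, 3 of the 10 were higher and 2 lower in ALAS1/2-KO, where 11.3% and 11.4% of all tested genes were. The 12 Kupffer cell and macrophage markers, led by Cd5l and Clec4f, summed to 268, 806, 1709 and 1563 CPM in ALAS1/2-KO replicates 1 to 4, against 1224, 1083 and 1468 CPM in WT replicates 1 to 3. The 10 endothelial markers, led by Fcgr2b and Clec4g, summed to 86.5, 198, 379 and 300 CPM in ALAS1/2-KO, against 398, 358 and 446 CPM in WT. The 9 listed stellate cell and fibroblast markers, led by Dcn and Reln, summed to 39.2 to 190 CPM in ALAS1/2-KO and 165 to 298 CPM in WT. In these 3 lists limma and limma voom called 0 genes, with 0, 2 and 8 at an unadjusted p under 0.05 in limma, where 23.7% of all tested genes were, and all log2 fold changes were below 0. The 2 listed cholangiocyte markers of 7 summed to 2.72 to 5.35 CPM in ALAS1/2-KO and 12.1 to 21.1 CPM in WT, the 4 listed lymphocyte markers of 10 to 6.17 to 29.6 CPM in ALAS1/2-KO and 23.6 to 37.2 CPM in WT, and the 5 listed erythroid markers of 7 to 3.18 to 7.59 CPM in ALAS1/2-KO and 18.0 to 51.6 CPM in WT. Of these, Spp1, Cd79a, Hbb-bt and Alas2 were called lower in ALAS1/2-KO, where 2.19% of all tested genes were. Alas2, which the siRNA was to lower, is part of the erythroid sum. In 7 fits that each left out 1 library, Spp1, Cd79a, Hbb-bt and Alas2 passed in 6, 3, 1 and 7. Limma voom called 1 erythroid marker lower. No listed marker was at 0 in any library. ALAS1/2-KO replicate 1 thus had the lowest summed Kupffer, endothelial and stellate cell markers of all libraries, and replicate 2 lay between it and replicates 3 and 4. The part of these differences in the clock values below was not tested. In such bulk samples fewer cells of a type and less RNA per cell cannot be told apart.

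Promoter sequences from RefSeq, on build GRCm38.p6, were found for 8 of the 9 genes. Bhlhe40 had no entry. Windows of 300 bases, from 250 before to 50 after each annotated start, were searched on both strands for the E-box CACGTG, the D-box TTATGTAA or TTACGTAA and the ROR element core AGGTCA. The E-box was in windows of Ciart, Tef and Bhlhe41, 3 of the 8 genes, and in 7.15% of all 32851 windows. The ROR core was in that of Nfil3 and in 16.3% of all windows, and the D-box was in none of the members' windows and in 1.06% of all. Dbp, Hlf, Rora and Usp2 held none of these letters in their windows. The 250 bases taken for Usp2, chr9:44084670-44084919, lie inside the gene, which begins at 44067021 in the GENCODE annotation. The bases before that upstream start of Usp2 were not searched. The stretches of both Tef starts also lie inside the gene, which begins at 81802421 in GENCODE. Those of Nfil3, Bhlhe41, Ciart and Dbp run partly into their genes. The Nfil3 match lies inside the gene, whose minus-strand start is at 52981073 in GENCODE. The 250 bases before the start are printed 5′ to 3′ on the gene's own strand for the 4 genes with a match, because they hold the matched letters, which are in capitals.
Ciart, chr3:95882229-95882478, minus strand, 3 E-boxes with first bases at -116, -58 and -44 from the start: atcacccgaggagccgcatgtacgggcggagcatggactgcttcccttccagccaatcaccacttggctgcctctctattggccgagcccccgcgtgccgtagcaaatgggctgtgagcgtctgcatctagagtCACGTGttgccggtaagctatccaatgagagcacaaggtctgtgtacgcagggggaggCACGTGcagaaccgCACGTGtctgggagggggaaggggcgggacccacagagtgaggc
Tef, first start, chr15:81802423-81802672, plus strand, E-box with its first base at -127 from the start: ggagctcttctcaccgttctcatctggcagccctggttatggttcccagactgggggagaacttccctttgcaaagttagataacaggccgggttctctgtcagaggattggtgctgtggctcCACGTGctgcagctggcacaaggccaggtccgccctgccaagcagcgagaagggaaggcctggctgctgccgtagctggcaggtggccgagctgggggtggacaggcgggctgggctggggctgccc
Tef, second start, chr15:81811164-81811413, plus strand, E-box with its first base at -138 from the start: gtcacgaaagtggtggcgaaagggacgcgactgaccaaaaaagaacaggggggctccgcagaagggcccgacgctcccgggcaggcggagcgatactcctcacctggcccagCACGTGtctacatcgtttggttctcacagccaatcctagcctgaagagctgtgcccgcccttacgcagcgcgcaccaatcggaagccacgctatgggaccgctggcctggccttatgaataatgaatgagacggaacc
Bhlhe41, chr6:145865421-145865670, minus strand, E-box with its first base at -153 from the start: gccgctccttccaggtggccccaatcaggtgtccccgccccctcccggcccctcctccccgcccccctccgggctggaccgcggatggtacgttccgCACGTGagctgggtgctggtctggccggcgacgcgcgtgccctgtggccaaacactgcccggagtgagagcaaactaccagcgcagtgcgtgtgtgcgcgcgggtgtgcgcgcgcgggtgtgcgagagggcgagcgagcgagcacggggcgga
Nfil3, chr13:52981040-52981289, minus strand, the ROR core as its complement TGACCT with the first base at -12 from the start: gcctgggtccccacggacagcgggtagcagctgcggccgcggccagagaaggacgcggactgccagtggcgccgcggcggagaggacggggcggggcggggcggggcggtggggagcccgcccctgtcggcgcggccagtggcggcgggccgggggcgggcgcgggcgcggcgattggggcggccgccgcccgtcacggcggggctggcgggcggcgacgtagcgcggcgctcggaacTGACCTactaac
These matches describe letters in a window and do not show that a factor bound there.

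Bhlhe40 was higher and Nfil3 lower in ALAS1/2-KO, and the other 7 regulators did not pass the test across all genes, although Dbp, Ciart and Tef had much larger differences between the group means. In limma, with a Benjamini-Hochberg adjusted p under 0.05 over 12105 genes, 1 of the 9 rose and 1 fell, where 2.91% of all tested genes rose and 2.19% fell, 5.1% in all. Of all calls 57% were higher, against 92.6% with CPM rescaled to listed reads and 40.4% with mitochondrial genes and the 20 most abundant ones kept out of the scaling. In 7 fits that each left out 1 library, Bhlhe40 passed in 2 and Nfil3 in 1. An alternative chosen after seeing the data left out ALAS1/2-KO replicates 1 and 2 together. There Bhlhe40 (log2 fold change 0.57, limma adjusted p = 0.0241) and Nfil3 (-0.93, limma adjusted p = 0.00386) were again the 1 regulator that rose and the 1 that fell. The median log2 fold change of the 9 was 0.72, against -0.02 over all genes, and 8 of the 9 estimates were positive. All 9 passed the filter on low values, which asked for 1 CPM in 3 or more libraries. The groups did not overlap for 5 of the 9, which left all 4 ALAS1/2-KO libraries above the WT range for Dbp, Tef, Hlf and Bhlhe40 and below it for Nfil3, where 22.7% of all genes had no overlap. For each of these 5 the exact two-sided permutation p over 35 regroupings was 0.0286, the smallest that 4 against 3 libraries allow. Limma pools the spread of both groups, and the wide WT spread of Dbp, Tef and Ciart enters its error.

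**Figure D1:**
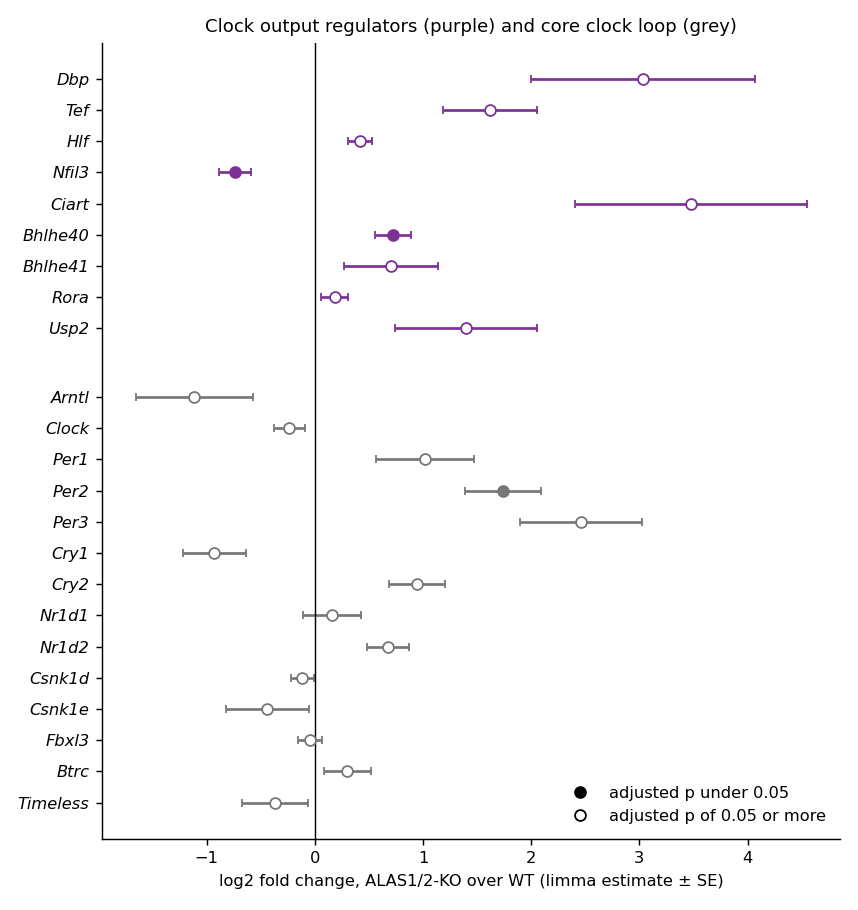
Log2 fold change of ALAS1/2-KO over WT (limma estimate, bars are SE) for the 9 clock output regulators in purple and 14 genes of the core clock loop in grey; filled points passed an adjusted p under 0.05. Bhlhe40 (0.72) and Nfil3 (-0.74) are filled, and Ciart (3.48) and Dbp (3.03) have the longest error bars, at 1.07 and 1.04.

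The PAR bZIP activators differed most in Dbp and least in Hlf. Dbp (ENSMUSG00000059824.12, chromosome 7, 45705088 to 45710203, mm10, plus strand) stood at 48.5, 74.6, 70.7 and 66.0 CPM in ALAS1/2-KO replicates 1 to 4, against 40.4, 10.04 and 1.11 CPM in WT replicates 1 to 3. Its 4 ALAS1/2-KO values lay close together and above all WT values, while the WT libraries were far apart, with replicate 1 just under the ALAS1/2-KO range and replicate 3 near the bottom of the measured range, at 38 reads. The ALAS1/2-KO mean was accordingly 1.61 times WT replicate 1, 6.47 times WT replicate 2 and 58.4 times WT replicate 3. The log2 fold change was 3.03 (SE 1.04, limma adjusted p = 0.14), and Dbp passed in 0 of the 7 fits without a library, where its estimate ran from 1.67 without WT replicate 3 to 4.22 without WT replicate 1. Dbp overlaps Sphk2 on the other strand. Sphk2, chosen after its values were seen, averaged 18.5 CPM in ALAS1/2-KO and 21.4 CPM in WT, with a WT SD of 0.03 on the log2 scale.

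Tef (ENSMUSG00000022389.15, chromosome 15, 81802421 to 81826863, plus strand) stood at 82.1, 92.5, 111 and 120 CPM in ALAS1/2-KO replicates 1 to 4, against 65.9, 33.3 and 15.8 CPM in WT replicates 1 to 3. The groups did not overlap, and the WT libraries kept the order they had for Dbp over a narrower range, 4.18-fold instead of 36.4-fold between the highest and the lowest. The log2 fold change was 1.62 (SE 0.43, limma adjusted p = 0.0836), and Tef passed in 1 of the 7 fits without a library, that without WT replicate 1 (2.13, limma adjusted p = 0.027), while without WT replicate 3 it was at 1.10 (limma adjusted p = 0.0943). Hlf (ENSMUSG00000003949.16, chromosome 11, 90336536 to 90390895, minus strand) stood at 30.4, 31.0, 34.3 and 33.4 CPM in ALAS1/2-KO, against 27.0, 25.1 and 20.9 CPM in WT. These groups did not overlap either, but the difference was small, with a log2 fold change of 0.41 (SE 0.11, limma adjusted p = 0.0729), and the WT libraries differed by 1.29-fold at most. All 3 activators were thus lowest in WT replicate 3 and, among WT libraries, highest in WT replicate 1.

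**Figure D2:**
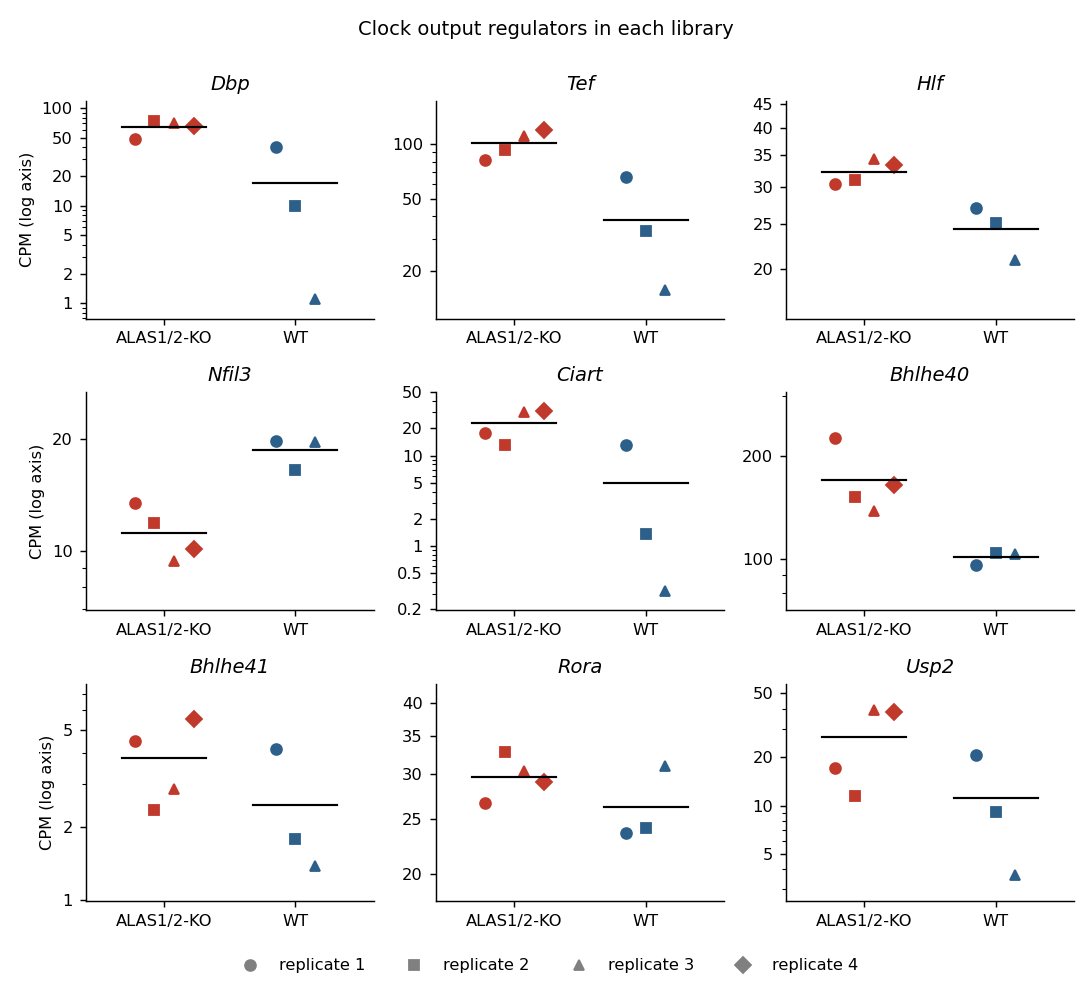
CPM of each of the 9 genes on a log axis, with 1 point per library and a line at the mean of each group. Symbols mark replicate numbers, and the labels do not say whether a shared number pairs libraries across groups. Dbp, Tef, Hlf and Bhlhe40 lie higher and Nfil3 lies lower in all 4 ALAS1/2-KO libraries than in the 3 WT libraries, and WT replicate 3 is at 1.11 CPM for Dbp and 0.322 CPM for Ciart.

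Nfil3, which represses through the D-boxes that Dbp, Tef and Hlf activate, fell in ALAS1/2-KO. It lies on chromosome 13 (ENSMUSG00000056749.7, 52967209 to 52981073, minus strand) and stood at 13.5, 11.9, 9.38 and 10.1 CPM in ALAS1/2-KO replicates 1 to 4, against 19.8, 16.6 and 19.6 CPM in WT replicates 1 to 3. The groups did not overlap, and the WT libraries were close together, unlike those of Dbp and Tef. Nfil3 was 1.67-fold lower (log2 fold change -0.74, SE 0.15, limma adjusted p = 0.0303). The call held without ALAS1/2-KO replicate 1 (limma adjusted p = 0.0112) and was lost without any other library, at 0.0509, 0.0582 and 0.0737 without ALAS1/2-KO replicates 2, 3 and 4 and 0.102, 0.101 and 0.0776 without WT replicates 1, 2 and 3. With CPM rescaled to listed reads, which raises the median of all genes to 0.32, Nfil3 was at -0.41 (limma adjusted p = 0.142), and without an intensity trend in limma the adjusted p was 0.0576.

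Set against each other per kilobase of annotated exon, the 3 activators together stood at 4.70, 7.03, 9.26 and 8.47 times Nfil3 in ALAS1/2-KO replicates 1 to 4, against 2.66, 1.39 and 0.568 times in WT replicates 1 to 3. These ranges could not overlap, because each activator was higher and Nfil3 lower in all ALAS1/2-KO libraries than in any WT library. On this scale WT replicate 3 was the only library with more Nfil3 than activators. The scale divides by all annotated exons of a gene, and which transcripts were expressed was not measured. In CPM not divided by length, Hlf alone (20.9) was above Nfil3 (19.6) in WT replicate 3. For Dbp alone the ratio to Nfil3 was 2.44 to 5.10 in ALAS1/2-KO and 0.0384 to 1.38 in WT, and for Hlf alone 0.686 to 1.11 in ALAS1/2-KO and 0.323 to 0.460 in WT. These ratios combine genes whose separate values are given above and were not tested.

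Of the repressors that act at E-boxes, Bhlhe40 rose, while Ciart and Bhlhe41 did not pass. Bhlhe40, also called DEC1 (ENSMUSG00000030103.11, chromosome 6, 108660629 to 108666925, plus strand), stood at 227, 152, 138 and 165 CPM in ALAS1/2-KO replicates 1 to 4, against 96.6, 104 and 104 CPM in WT replicates 1 to 3. The groups did not overlap, and here the ALAS1/2-KO libraries were the more spread ones, with replicate 1 the highest. Bhlhe40 was 1.65-fold higher (log2 fold change 0.72, SE 0.16, limma adjusted p = 0.0433). The call held without ALAS1/2-KO replicate 1 or 3 (limma adjusted p = 0.0236 and 0.0459) and was lost without ALAS1/2-KO replicate 2 or 4 (0.0677 and 0.0891) or WT replicate 1, 2 or 3 (0.135, 0.166 and 0.0927). It was also lost when mitochondrial genes and the 20 most abundant ones were kept out of the scaling (0.65, limma adjusted p = 0.0562) and without an intensity trend (adjusted p = 0.0772).

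Ciart, also called Chrono (ENSMUSG00000038550.10, chromosome 3, 95878503 to 95882251, minus strand), stood at 17.8, 12.9, 30.2 and 30.7 CPM in ALAS1/2-KO replicates 1 to 4, against 13.2, 1.35 and 0.322 CPM in WT replicates 1 to 3. WT replicate 1 lay just above ALAS1/2-KO replicate 2, so the groups overlapped, and WT replicate 3 held only 11 reads of the gene. The log2 fold change of 3.48 was the largest estimate among the 9 genes (SE 1.07, limma adjusted p = 0.115, exact permutation p = 0.0571), and the gene passed in 1 of the 7 fits without a library, that without WT replicate 1 (4.86, limma adjusted p = 0.0213), while without WT replicate 3 it was at 2.32 (limma adjusted p = 0.196). Within ALAS1/2-KO, replicates 1 and 2, which had the least Kupffer and endothelial marker RNA, were below replicates 3 and 4. Bhlhe41, the close paralog of Bhlhe40 (ENSMUSG00000030256.11, chromosome 6, 145858243 to 145865558, minus strand), stood at 4.51, 2.34, 2.84 and 5.54 CPM in ALAS1/2-KO, against 4.18, 1.79 and 1.38 CPM in WT. Its groups overlapped widely (log2 fold change 0.70, SE 0.43, limma adjusted p = 0.364), and it was counted at 45 to 168 reads per library. Its WT libraries followed the order of Dbp, which those of Bhlhe40 did not.

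Rora and Usp2 did not pass. Rora, a nuclear receptor that activates Arntl and Nfil3 through ROR elements (ENSMUSG00000032238.17, chromosome 9, 68653786 to 69388246, plus strand), stood at 26.7, 32.8, 30.3 and 29.1 CPM in ALAS1/2-KO replicates 1 to 4, against 23.7, 24.1 and 31.1 CPM in WT replicates 1 to 3. The groups overlapped and both were narrow (log2 fold change 0.18, SE 0.12, limma adjusted p = 0.407), and in contrast to the PAR bZIP genes its highest WT value was in replicate 3. Usp2 (ENSMUSG00000032010.15, chromosome 9, 44067021 to 44095627, plus strand) stood at 17.1, 11.5, 39.4 and 38.5 CPM in ALAS1/2-KO, against 20.6, 9.05 and 3.69 CPM in WT. Both groups were wide, and ALAS1/2-KO replicates 1 and 2 lay within the WT range while replicates 3 and 4 lay above it (log2 fold change 1.40, SE 0.66, limma adjusted p = 0.248). Its log2 fold change was 0.77 without WT replicate 3 and 2.00 without WT replicate 1. Usp2 makes long and short protein forms from different starts, which values for the whole gene do not separate. For 7 of the 9 regulators, all but Hlf and Nfil3, another annotated gene overlaps on the opposite strand, and no source used here says whether reads were counted by strand, so reads of the overlaps cannot be assigned.

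The spread among the 3 WT libraries set the clock output regulators apart from each other. Measured as the SD of log2 CPM, it was 2.57 for both Ciart and Dbp, 1.23 for Usp2, 1.03 for Tef and 0.81 for Bhlhe41, against 0.22 for Rora, 0.19 for Hlf, 0.14 for Nfil3 and 0.06 for Bhlhe40. Among 12105 genes, Ciart ranked 3 and Dbp 4 for WT spread, Usp2 33, Tef 73 and Bhlhe41 159. Only the acute phase genes Saa2 (3.19) and Saa1 (2.63), named here after their values were seen, had a larger WT SD than Ciart and Dbp. The median WT SD was 0.81 over the 9 regulators, 0.39 over 14 core clock loop genes and 0.18 over all genes tested. The largest in the core loop was 1.34, for Per3. Among the 4 ALAS1/2-KO libraries the SD was 0.88 for Usp2, 0.61 for Ciart, 0.57 for Bhlhe41, 0.31 for Bhlhe40, 0.28 for Dbp, 0.25 for Tef, 0.23 for Nfil3, 0.12 for Rora and 0.08 for Hlf, with a median of 0.28 against 0.21 over all genes. For 7 of the 9 regulators the WT libraries were the more spread group. The exceptions were Nfil3 and Bhlhe40, the 2 genes that were called. WT was also the more spread group for 9 of the 14 core loop genes, and over all genes for 38.7%. The difference in spread between the groups was not tested.

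**Figure D3:**
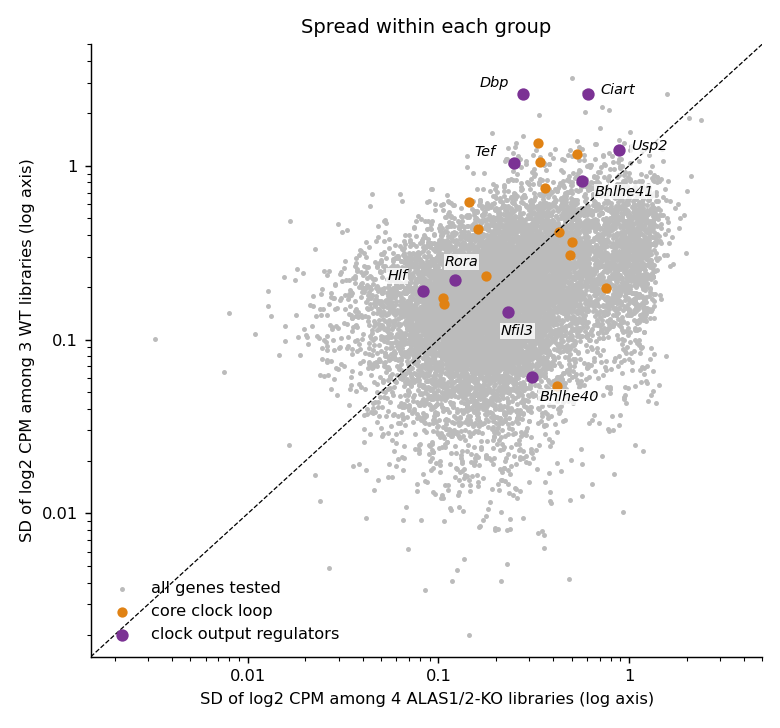
SD of log2 CPM among the 4 ALAS1/2-KO libraries (horizontal) and among the 3 WT libraries (vertical), both on log axes, with 1 point per gene, core loop genes in orange, the clock output regulators in purple and a dashed line where both SDs are equal. Dbp and Ciart, at 2.57 in WT, stand at the top of the cloud, whereas Bhlhe40 and Nfil3 lie below the line.

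Per kilobase of annotated exon, the order of levels differed between the groups. In ALAS1/2-KO, Bhlhe40 was the most abundant at 36.3 ± 8.29 CPM per kb (SD, n = 4), followed by Dbp at 21.7 ± 3.84, Tef at 12.9 ± 2.19, Ciart at 10.1 ± 3.95, Nfil3 at 5.54 ± 0.903, Usp2 at 5.53 ± 2.998, Hlf at 4.83 ± 0.280, Rora at 2.27 ± 0.193 and Bhlhe41 at 0.566 ± 0.220 CPM per kb. The libraries of neighbours in that order overlapped for Tef and Ciart, for Ciart and Nfil3, for Nfil3 and Usp2 and for Usp2 and Hlf. In WT, Bhlhe40 again came first at 21.6 ± 0.895 CPM per kb (SD, n = 3), and Nfil3 came next at 9.21 ± 0.898, ahead of Dbp at 5.75 ± 6.89, Tef at 4.87 ± 3.23, Hlf at 3.64 ± 0.468, Usp2 at 2.30 ± 1.79, Ciart at 2.19 ± 3.15, Rora at 2.01 ± 0.317 and Bhlhe41 at 0.364 ± 0.225 CPM per kb. Between Nfil3 and Rora every pair of neighbours in the WT order overlapped. Single WT libraries ran from 0.372 to 13.5 CPM per kb for Dbp and from 0.142 to 5.82 for Ciart.

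Of 14 tested genes of the core clock loop, which drives these regulators, Per2 rose and 0 fell, with 2 and 0 by limma voom. At an unadjusted limma p under 0.05 were 5, of which 4 were higher, against 23.7% and 11.8% of all tested genes. The groups did not overlap for 4 of the 14, all higher in ALAS1/2-KO, where 11.3% of all tested genes were. The median log2 fold change was 0.06, and 7 of the 14 estimates were positive. Per2, a repressor of CLOCK and BMAL1, stood at 25.9, 21.2, 35.9 and 34.7 CPM in ALAS1/2-KO replicates 1 to 4, against 14.7, 8.22 and 5.21 CPM in WT replicates 1 to 3 (log2 fold change 1.74, SE 0.35, limma adjusted p = 0.0377). Its WT libraries were in the order seen for Dbp and Tef. It passed without ALAS1/2-KO replicate 1 or WT replicate 1 (limma adjusted p = 0.035 and 0.0203) and not without ALAS1/2-KO replicate 2, 3 or 4 (0.0585, 0.0771 and 0.0871) or WT replicate 2 or 3 (0.154 and 0.0668). Without ALAS1/2-KO replicates 1 and 2 together its log2 fold change was 2.03 (limma adjusted p = 0.0583), and without an intensity trend the adjusted p was 0.0593. Without WT replicate 1, 3 core loop genes were called higher. Per1 stood at 39.2, 30.3, 47.7 and 51.2 CPM in ALAS1/2-KO, against 38.6, 23.7 and 9.17 CPM in WT (log2 fold change 1.02, SE 0.46, limma adjusted p = 0.228).

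The activator gene Arntl, which encodes BMAL1, ran the other way among the WT libraries. It stood at 2.63, 4.40, 1.83 and 2.18 CPM in ALAS1/2-KO replicates 1 to 4, against 2.56, 5.52 and 13.2 CPM in WT replicates 1 to 3, so that WT replicate 3, with the least Dbp, Ciart, Tef and Usp2, had the most Arntl. Arntl did not pass (log2 fold change -1.11, SE 0.54, limma adjusted p = 0.259), and its log2 fold change was -0.52 without WT replicate 3 and -1.69 without WT replicate 1. Its partner Clock stood at 25.1 ± 2.99 CPM in ALAS1/2-KO and 29.7 ± 4.93 CPM in WT (SD, n = 4 and 3, log2 fold change -0.23, SE 0.14, limma adjusted p = 0.351). Nr1d1, which encodes REV-ERBα, the repressor that opposes RORA at ROR elements, stood at 88.2, 89.2, 53.4 and 46.4 CPM in ALAS1/2-KO, against 74.1, 48.6 and 58.2 CPM in WT (log2 fold change 0.16, SE 0.27, limma adjusted p = 0.756). Within ALAS1/2-KO, Nr1d1 was higher in replicates 1 and 2 than in replicates 3 and 4, the reverse of Ciart and Usp2. Without replicates 1 and 2 its log2 fold change was -0.26.

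**Figure D4:**
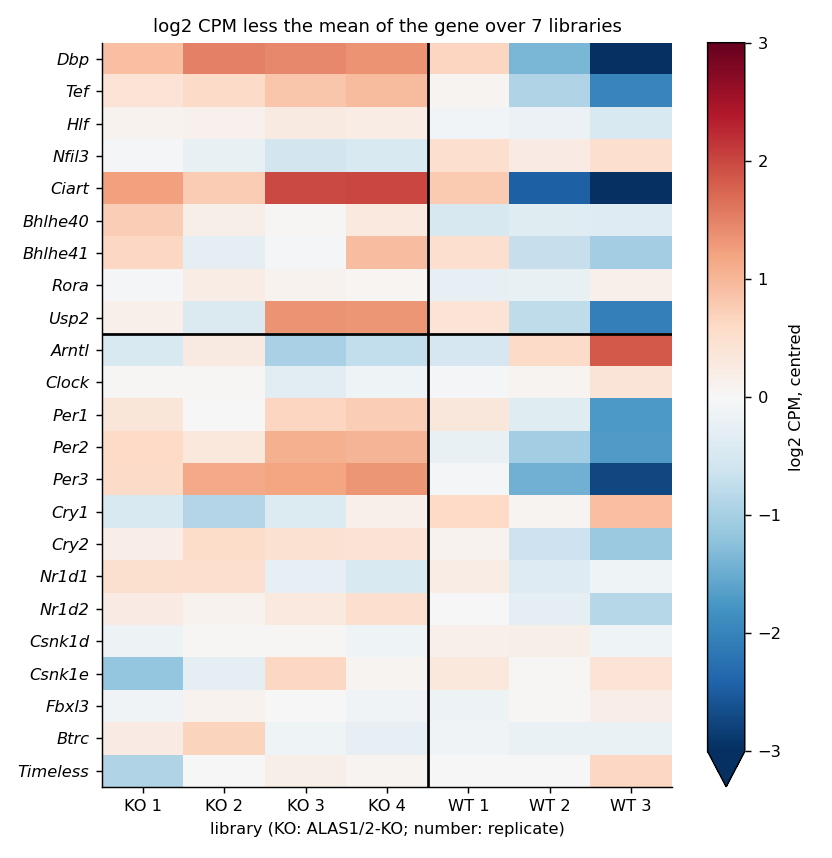
Log2 CPM less each gene's mean over the 7 libraries, for the 9 clock output regulators above the horizontal line and 14 core loop genes below it, with the 4 ALAS1/2-KO libraries left of the 3 WT libraries; colours end at 3 above and 3 below the mean. WT replicate 3 is lowest for Dbp and Ciart and highest for Arntl, and ALAS1/2-KO replicates 3 and 4 are highest for Ciart and Usp2.

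Genes linked to the PAR bZIP activators in mouse liver changed in both directions. Of 8 tested, 3 rose and 1 fell, where 2.91% of all tested genes rose and 2.19% fell. The median log2 fold change was 0.74, against -0.02 over all genes, and 5 of the 8 estimates were positive. Cyp2b10, a drug-metabolizing cytochrome P450, stood at 80.6, 113, 100 and 93.5 CPM in ALAS1/2-KO replicates 1 to 4, against 14.0, 9.05 and 10.3 CPM in WT replicates 1 to 3 (log2 fold change 3.13, SE 0.17, limma adjusted p = 0.000114), with WT libraries far closer together than those of Dbp. Por, which passes electrons to these enzymes, stood at 595, 403, 758 and 806 CPM in ALAS1/2-KO, against 319, 194 and 154 CPM in WT (log2 fold change 1.54, limma adjusted p = 0.0353). It passed in 3 of the 7 fits without a library. Ppara, the nuclear receptor of fatty acid use, rose 1.604-fold (limma adjusted p = 0.0269) and passed in 4 of those fits, and Cyp2a5, a known target of DBP, stood at 80.1 ± 27.9 CPM in ALAS1/2-KO and 199 ± 45.9 CPM in WT and fell 2.55-fold (limma adjusted p = 0.0373), passing in 2 of them. Without WT replicate 2, Por, Ppara and Cyp2a5 had limma adjusted p = 0.154, 0.12 and 0.162.

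Alas1 belongs to the same list. It stood at 287, 332, 307 and 361 CPM in ALAS1/2-KO replicates 1 to 4, against 280, 265 and 83.5 CPM in WT replicates 1 to 3, so that its lowest library was WT replicate 3, as for Dbp, Tef and Hlf, while WT replicates 1 and 2 lay close under the ALAS1/2-KO libraries. Its log2 fold change was 0.80 (SE 0.41, limma adjusted p = 0.277), and 0.24 without WT replicate 3. Values for the whole gene do not check a deletion of exons 4 and 5.

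In a list of 12 other transcripts known to be rhythmic in mouse liver or in other tissues, 0 were called by limma and by limma voom, and 6 had an unadjusted p under 0.05, against 23.7% of all tested genes. Lpin1, a phosphatidate phosphatase, stood at 505, 208, 390 and 479 CPM in ALAS1/2-KO replicates 1 to 4, against 305, 172 and 21.0 CPM in WT replicates 1 to 3 (log2 fold change 1.86, SE 0.86, limma adjusted p = 0.243), with the lowest value again in WT replicate 3. Its log2 fold change was 0.71 without WT replicate 3 and 2.64 without WT replicate 1. Hsp90aa1, a heat shock protein gene, stood at 57.7 ± 12.0 CPM in ALAS1/2-KO and 59.8 ± 5.48 CPM in WT (SD, n = 4 and 3, log2 fold change -0.07, limma adjusted p = 0.826). Of 14 immediate early genes, which respond to cell isolation and stress, 0 were called by limma and by limma voom, and 2 had an unadjusted p under 0.05, against the same 23.7%. Egr1 stood at 421 ± 86.6 CPM in ALAS1/2-KO and 328 ± 63.2 CPM in WT, and Zfp36 at 425 ± 111 CPM and 324 ± 52.4 CPM, both with overlapping libraries (limma adjusted p = 0.282 and 0.336).

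The genes most like 3 of the regulators were sought by the root mean square difference of log2 CPM over the 7 libraries, after centring each gene on its mean. Nearest to Dbp were Ciart at 0.61, Per3 at 0.74 and Lpin1 at 0.87, where the centred values of Dbp themselves had a root mean square of 2.04. Per3, a clock gene of the Per family, stood at 17.0, 25.1, 25.9 and 28.8 CPM in ALAS1/2-KO replicates 1 to 4, against 11.1, 4.13 and 1.67 CPM in WT replicates 1 to 3. Nearest to Nfil3 were Tmprss2, a membrane protease, at 0.08, Dsc2, a desmosomal cadherin, at 0.12 and the unnamed model Gm11844 at 0.12, where Nfil3 itself had 0.40. Nearest to Usp2 were the unnamed model Gm15889 at 0.42, Nrg4, a secreted growth factor, at 0.42 and Per1 at 0.43, where Usp2 itself had 1.11. All genes compared share the same 7 libraries and their scaling.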

How the data were processed

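Messenger RNA of isolated mouse hepatocytes was measured by RNA sequencing. Trizol extraction and TruSeq libraries from 1 µg of RNA are stated per the labels' protocols. Cutadapt, HISAT2 and build mm10 are named per the submitters' processing notes. No source used here gives versions, the read counter, the annotation or the strand handling. The authors deposited log2 CPM values with a small prior for 12151 genes. 2 to the power of a value, less a floor of 0.0676 CPM, equalled a whole number of reads within 0.01 reads for 100% of values below 20000 reads. The depth behind a value is these reads, and 1 read was worth 0.0293 to 0.0522 CPM. The effective library size behind that worth was 1.07 to 1.18 times the listed reads in ALAS1/2-KO. In WT it was 0.801 to 1.003 times the listed reads. The deposited CPM are therefore not scaled to listed reads alone, and no source used here says how the scaling was set. CPM in the text are unlogged, less the floor.

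The 12105 genes that reached 1 CPM in 3 or more libraries were tested in limma 3.58.1 (R 4.3.3) on the deposited log2 values, with an intensity trend, robust moderation and Benjamini-Hochberg adjustment over all of them. An adjusted p under 0.05 counts as called. Fold changes are ALAS1/2-KO over WT and include the prior, which understates those of low genes. Exact permutation tests used all 35 regroupings. The procedure was tested on simulated data. Gene coordinates and exon lengths came from GENCODE M21 (mm10). Of other lists, up to 4 called genes or the 2 most abundant are named, beside all called core loop genes and Per1, Per2, Nr1d1, Clock and Arntl. Some genes of the other lists are not reported here. The members, lists and tests were chosen with earlier results of these data known. Alternatives are given in the closing section.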

Additional observations from a re-analysis of the deposited data

How the results depend on the processing

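The count of genes called was 617 of 12105. It was 2735 with CPM rescaled to listed reads, 2001 with array weights, 306 without a limma trend, 72 with the replicate block, and 100 to 802 without a library each. With ALAS1/2-KO replicates 1 and 2 left out together, an alternative chosen after seeing the data, it was 1130. The number of the 9 regulators called higher (1) became 4 with CPM rescaled to listed reads and with array weights, in both cases Tef, Hlf, Ciart and Bhlhe40. It became 0 with mitochondrial genes and the 20 most abundant ones kept out of the scaling, without a limma trend and with the replicate block, and ran from 0 to 2 without a library each. The number called lower (1) became 0 with CPM rescaled to listed reads, without a limma trend and with the replicate block, and ran from 0 to 1 without a library each. The replicate block gives ALAS1/2-KO replicate 4 no weight, and the labels give no pairing beyond the replicate number. Deviations of same-numbered libraries correlated at -0.03, 0.05 and 0.18, and not every library correlated best with its own number. So few pairs cannot decide whether same-numbered libraries were handled together. Dbp passed in none of the 7 fits without a library and none of the 11 other alternatives (limma adjusted p = 0.0506 to 0.305). Bhlhe41, Rora and Usp2 passed in none of theirs either. All 9 regulators kept the sign of their log2 fold change in each alternative. Among the other named genes, with CPM rescaled to listed reads Clock turned to 0.10, Hsp90aa1 to 0.27 and Cd5l to 0.049. Without a library each, Hsp90aa1 ran from -0.20 to 0.020, Cd5l from -0.62 to 0.30 and Clec4f from -0.80 to 0.034, with Hsp90aa1 above 0 without ALAS1/2-KO replicate 2 and the other 2 without ALAS1/2-KO replicate 1. Alb was at 0.28 with quantile normalization, and Cd5l and Clec4f were at 0.41 and 0.15 with array weights. The causes were not tested. Without ALAS1/2-KO replicates 1 and 2, Nr1d1 was at -0.26, Cd5l at 0.66 and Clec4f at 0.37. The share of higher calls was 57% of all calls, 92.6% with CPM rescaled to listed reads and 40.4% with mitochondrial genes and the 20 most abundant ones kept out of the scaling. At 11 reads of Ciart and 38 of Dbp, counting error limits the values of WT replicate 3, and counting intervals would cover counting error only.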
